A study of Mus musculus with 4 samples.

Results

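Angiogenesis genes of 10 symbols were examined on day 2 of 3T3-L1 differentiation: the ligands Vegfa, Vegfb, Vegfc and Pgf, the receptors Flt1 and Kdr, the co-receptors Nrp1 and Nrp2, and Angpt1 and Angptl4 of the angiopoietin and angiopoietin-like families. All non-control probes that carried one of these symbols were taken, which gave 21 probes and 48 spots of the 41174 probes and 43379 spots on the array. They stood for 10 of the 20908 genes named by symbol. 3T3-L1 is an established mouse line of preadipocytes that turns into adipocytes after hormonal induction. All cells received initiation media with insulin, dexamethasone and IBMX on day 0 and were harvested on day 2. The conditions were 0.1% DMSO alone as the control, 100 μg/ml bilberry extract, 100 nM delphinidin and 100 nM cyanidin, with DMSO at 0.1% throughout. Delphinidin and cyanidin are anthocyanidins, plant pigments that also occur in bilberry, and delphinidin carries an additional hydroxyl group on its B ring. RNA was measured on 1 single-dye Agilent Whole Mouse Genome array per condition, which allows neither a test nor an error across cultures. All 3 treatments are set against the same DMSO array.

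VEGF ligands are secreted proteins that bind receptor tyrosine kinases, chiefly on endothelial cells, and drive the growth and permeability of blood vessels. Vegfa signals mainly through Kdr, while Flt1 binds Vegfa, Vegfb and Pgf and, in its soluble form, traps them, and Vegfc acts on lymphatic vessels. Neuropilins present ligands to these receptors, and Angpt1 stabilizes vessels through the Tek receptor. Fat tissue is rich in capillaries, and adipocytes and their precursors are known to secrete VEGF and Angptl4, an inhibitor of lipoprotein lipase.

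The values are processed signals divided by the 75th percentile of the array (scaled signals), so that 1 is the level of the spot at that percentile. A log2 ratio is the log2 scaled signal with a treatment minus that with DMSO. The percentile lay at 861, 576, 1009 and 1016 in the order DMSO, bilberry, delphinidin, cyanidin. The spike-in controls added to the RNA were 0.95 higher with bilberry than with DMSO on the log2 scale, and differed by -0.03 and 0.00 with delphinidin and cyanidin. Against the spike-in controls the median gene therefore stood at -1.37, 0.24 and 0.25 on the bilberry, delphinidin and cyanidin arrays, where the 75th percentile put it at 0.16, -0.02 and 0.00. For 245 probes spotted 10 times, the median SD of the spots of an array was 0.033 to 0.039 on the log2 scale, which covers the spots of an array only. All 4 arrays lay on 1 slide. In RNA of whole cultures, fewer cells of a kind and less RNA per cell cannot be told apart.

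To show what lies upstream of the members that were lower with all 3 treatments (Vegfa, Vegfc, Flt1 and Nrp2, described below) and of Pgf, which was higher with bilberry alone in the 75th percentile scaling, the 250 bases before the first start site listed in RefSeq (GRCm38.p6) are given 5′ to 3′ on the strand of the gene. Capitals mark the GC box GGGCGG or its reverse complement CCGCCC, the letters bound by SP1-type factors. The Vegfa window is chr17:46032378-46032627 (minus strand), that of Vegfc chr8:54077282-54077531 (plus), that of Flt1 chr5:147726012-147726261 (minus), that of Nrp2 chr1:62703067-62703316 (plus) and that of Pgf chr12:85177314-85177563 (minus).
Vegfa: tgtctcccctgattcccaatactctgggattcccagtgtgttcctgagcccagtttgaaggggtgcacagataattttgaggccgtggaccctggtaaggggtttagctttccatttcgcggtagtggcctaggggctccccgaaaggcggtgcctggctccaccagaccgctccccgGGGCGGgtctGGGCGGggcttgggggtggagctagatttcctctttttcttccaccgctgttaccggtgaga
Vegfc: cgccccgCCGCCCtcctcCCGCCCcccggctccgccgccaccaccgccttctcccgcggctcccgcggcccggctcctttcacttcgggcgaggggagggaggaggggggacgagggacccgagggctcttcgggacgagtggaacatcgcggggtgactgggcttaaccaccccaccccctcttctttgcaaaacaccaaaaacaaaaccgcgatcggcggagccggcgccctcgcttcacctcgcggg
Flt1: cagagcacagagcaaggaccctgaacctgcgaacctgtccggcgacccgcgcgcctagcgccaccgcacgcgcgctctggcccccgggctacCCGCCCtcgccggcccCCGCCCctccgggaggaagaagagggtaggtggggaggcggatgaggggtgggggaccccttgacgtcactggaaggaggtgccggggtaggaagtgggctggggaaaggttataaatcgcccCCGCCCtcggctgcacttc
Nrp2: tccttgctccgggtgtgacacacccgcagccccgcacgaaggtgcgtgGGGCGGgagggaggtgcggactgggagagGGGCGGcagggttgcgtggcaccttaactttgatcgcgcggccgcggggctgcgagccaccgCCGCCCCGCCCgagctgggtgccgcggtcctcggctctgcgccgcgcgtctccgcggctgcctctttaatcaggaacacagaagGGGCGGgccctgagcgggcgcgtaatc
Pgf: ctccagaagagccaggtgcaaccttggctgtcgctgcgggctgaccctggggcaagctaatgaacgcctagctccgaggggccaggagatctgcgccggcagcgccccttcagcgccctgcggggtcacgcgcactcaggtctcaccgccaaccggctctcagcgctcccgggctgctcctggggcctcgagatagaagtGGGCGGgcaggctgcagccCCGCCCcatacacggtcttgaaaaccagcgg

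Every one of these first windows held the GC box, with 2 matches for Vegfa, 2 for Vegfc, 3 for Flt1, 5 for Nrp2 and 2 for Pgf, counting both strands and overlaps. Of 32851 RefSeq mouse promoter windows of that length, 32.7% held it. The hypoxia response core ACGTG (or CACGT) was in none of the 5 windows and in 16.6% of all windows. RefSeq lists a second window for Vegfa, chr17:46025164-46025413, which on the minus strand lies downstream of the first. It held the hypoxia core and the GC box 1 time each. The second window listed for Pgf held neither. The TATA box TATAAA (or TTTATA) was in the Flt1 window once, where it stands in lower case, and in 12.4% of all windows. The share of G and C was 59.2% for Vegfa, 71.6% for Vegfc, 70.4% for Flt1, 72.4% for Nrp2 and 68.4% for Pgf, beside a median of 52.4%. The first RefSeq windows of Vegfb, Kdr (which has no ratio) and Nrp1, held 4, 2 and 1 GC boxes. These matches describe letters in a window and were not tested as binding sites.

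Of the 10 genes, 9 were well above background on every array by the software's own test, and Kdr was not on any. Of all genes named by symbol, between 61.5% (bilberry) and 65.8% (delphinidin) passed. At the level of probes, 17 of 21 passed on all 4 arrays. The others were both Kdr probes and 2 of the 5 Flt1 probes.

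**Figure D1:**
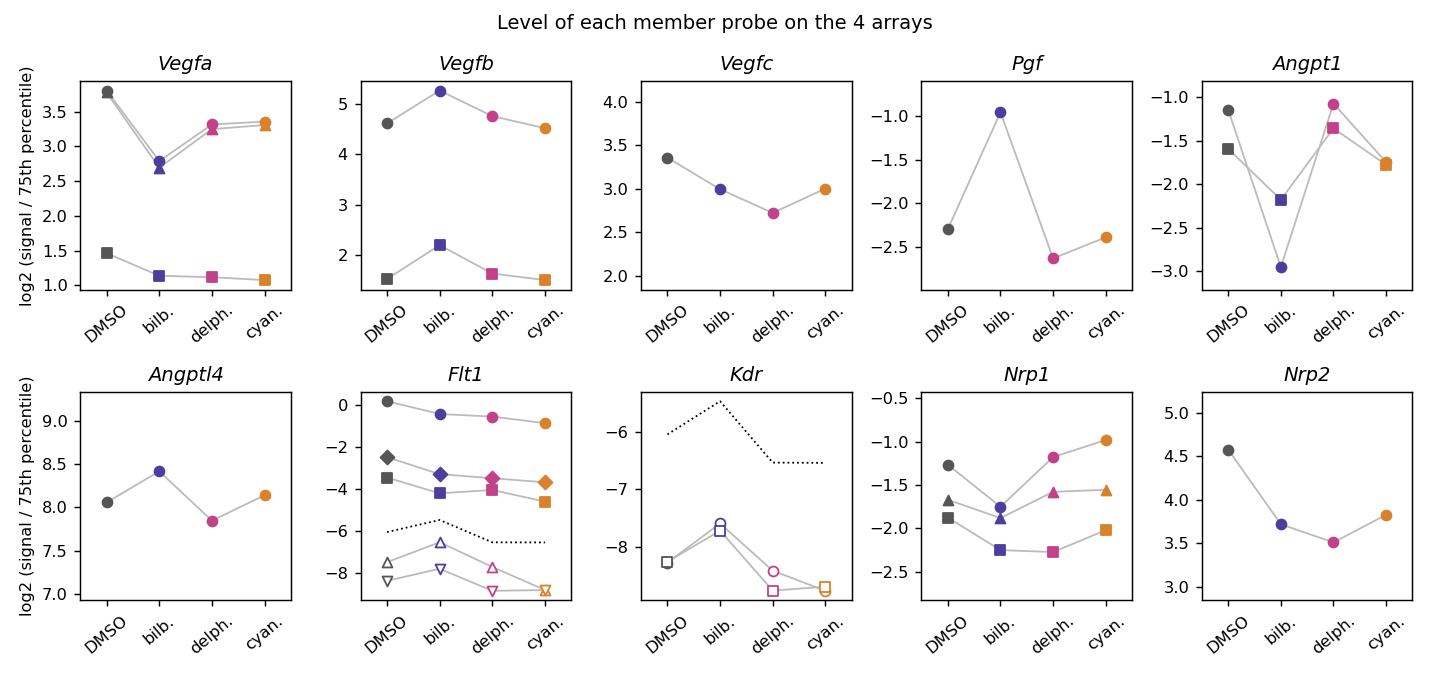
Log2 scaled signal (vertical axis, a separate scale for each gene) of every probe of the 10 genes on the DMSO, bilberry, delphinidin and cyanidin arrays, with grey lines joining the values of a probe. Filled markers are well above background and open markers are not. The dotted line in the Flt1 and Kdr panels is the lowest level well above background on each array, and both Kdr probes lie under it on all 4 arrays.

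Vegfa was lower with all 3 treatments, and lowest with bilberry. It encodes the principal ligand of the family. Its probe A_51_P482552 lies on chromosome 17 of mm8 from 45482144 to 45482203 (minus strand) and is spotted 10 times. On the DMSO array the scaled signal was 13.9, against 6.90 for bilberry, 9.94 for delphinidin and 10.2 for cyanidin. The log2 ratios were -1.01, -0.49 and -0.45, or 2.02-fold, 1.40-fold and 1.36-fold lower. After spots marked by the software were left out, 8 to 10 spots per array remained, with SDs of 0.031, 0.032, 0.015 and 0.020 on the log2 scale in the same order of arrays. Spot by spot, the log2 ratio ranged from -1.05 to -0.98 for bilberry, from -0.52 to -0.47 for delphinidin and from -0.48 to -0.40 for cyanidin. DMSO, the highest array, and bilberry, the lowest, were therefore separate from the other arrays by more than the spread of spots, whereas the spots of delphinidin and cyanidin overlapped.

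**Figure D2:**
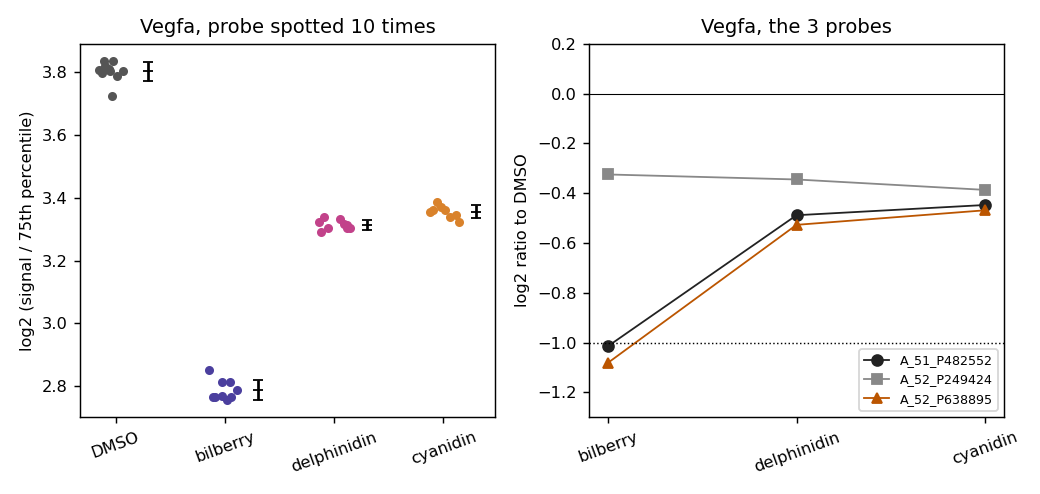
Left, log2 scaled signal of each spot of the Vegfa probe A_51_P482552 on the 4 arrays, with the mean and SD over spots as black bars (spots of 1 array, not replicates). Right, log2 ratio to DMSO of the 3 Vegfa probes, with the dotted line at 2-fold. The ratios of A_51_P482552 and A_52_P638895 were -1.01 and -1.08 with bilberry, and that of A_52_P249424 was -0.32.

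The 3 Vegfa probes gave the same direction but not the same size. A_52_P638895 (chromosome 17 of mm8, 45481019 to 45481078), nearest the 3′ end, had scaled signals of 13.7, 6.46, 9.49 and 9.89 in the order DMSO, bilberry, delphinidin, cyanidin. Its log2 ratios were -1.08, -0.53 and -0.47, close to those of the probe spotted 10 times. A_52_P249424 (45489008 to 45489067), 7989 bases towards the 5′ end, had scaled signals of 2.75, 2.20, 2.17 and 2.11 and log2 ratios of -0.32, -0.34 and -0.39. The probe at the 5′ side thus read 1.25-fold lower with bilberry, with no larger ratio than with the pure anthocyanidins. Every alternative scaling and background correction kept Vegfa lower, with ratios of A_51_P482552 from -2.54 to -0.99 for bilberry, -0.53 to -0.23 for delphinidin and -0.50 to -0.20 for cyanidin.

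Vegfb, a ligand of Flt1, was higher with bilberry in the 75th percentile scaling. Its 2 probes, A_51_P458168 (chromosome 19 of mm8, 7049516 to 7049573, minus strand) and A_52_P436628 (7049799 to 7049858), lie near each other and gave nearly the same ratios. The first read 24.4 on the DMSO array, against 38.3 for bilberry, 26.9 for delphinidin and 22.8 for cyanidin. Its log2 ratios were 0.65, 0.14 and -0.09, and those of the other probe were 0.67, 0.11 and -0.02. Under spike-in scaling the bilberry ratios were -0.88 and -0.86, and under the normexp background correction that of the first probe was 0.02, below the median gene (0.61 after a refit without spots of uneven local background). In the 75th percentile scaling Vegfb had its highest level on the array where Vegfa had its lowest.

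Vegfc, the lymphatic ligand, was lower with all 3 treatments and lowest with delphinidin, except under spike-in scaling and normexp, where bilberry was lowest. A_51_P433870 (chromosome 8 of mm8, 55684877 to 55684936, plus strand) read 10.3 on the DMSO array, against 7.98 for bilberry, 6.60 for delphinidin and 8.02 for cyanidin. The log2 ratios were -0.36, -0.64 and -0.36, and none passed 2-fold. All settings tried kept the 3 ratios below 0, and in the exceptions bilberry stood at -1.89 (spike-in) and -0.93 (normexp).

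Pgf, the placental growth factor that binds Flt1, was higher with bilberry and not with the anthocyanidins in the 75th percentile scaling. A_51_P318381 is placed on chromosome 12 of mm8 from 86056488 to 86058490 (minus strand), a span longer than a probe of 60 bases. The control array had a scaled signal of 0.203, bilberry 0.517, delphinidin 0.161 and cyanidin 0.191. Bilberry stood 2.54-fold above DMSO (log2 ratio 1.35), and the log2 ratios with delphinidin and cyanidin were -0.34 and -0.09. Under spike-in scaling the bilberry ratio was -0.18 and that of cyanidin 0.15, and quantile normalization put cyanidin at 0.02. Measured from the median gene, it was 1.18 in the main scaling and between 0.92 and 1.37 over the alternatives compared in that way.

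The ligands thus split with bilberry, Vegfa and Vegfc lying below the control and Vegfb and Pgf above it, in the 75th percentile scaling, with the exceptions for Vegfb and Pgf given above.

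Flt1, the receptor shared by Vegfa, Vegfb and Pgf, was lower with all 3 treatments and, in the 75th percentile scaling, lowest with cyanidin. A_51_P398723 (chromosome 5 of mm8, 147872564 to 147872623, minus strand) had scaled signals of 1.12 (DMSO), 0.736 (bilberry), 0.676 (delphinidin) and 0.545 (cyanidin). The log2 ratios were -0.61, -0.73 and -1.04, or 1.52-fold, 1.66-fold and 2.06-fold lower. The neighbouring A_52_P520859 (147872637 to 147872696) gave 0.178, 0.102, 0.0889 and 0.0776, with ratios of -0.81, -0.999 and -1.19. A_52_P307922 (147948554 to 147948613), 75990 bases away towards the 5′ end, gave 0.0909, 0.0540, 0.0604 and 0.0412, with ratios of -0.75, -0.59 and -1.14. All 3 detected probes were therefore past 2-fold with cyanidin, and the order of bilberry and delphinidin differed between them. This count depended on the processing: none of the 3 was past 2-fold with cyanidin under normexp, at -0.99 to -0.69 both before and after the refit, or under spike-in scaling, at -0.95 to -0.80. With bilberry the 2 dimmer probes, A_52_P520859 and A_52_P307922, were at 1.03 and 1.52 under normexp, and at -0.34 and -0.09 after the refit. Under spike-in scaling bilberry gave the lowest ratio of all 3 probes, with -2.14 at A_51_P398723. A_52_P405145 and A_52_P650151, placed further towards the 5′ end, passed the detection test on none of the arrays and have no ratio.

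Kdr, the main signaling receptor for Vegfa, was not detected. Both probes, A_51_P316553 (chromosome 5 of mm8, 76214981 to 76215040, minus strand) and A_52_P478193 (76243311 to 76243370), are spotted 10 times. None of the 10 spots of either probe was well above background on any of the 4 arrays. Unscaled signals lay between 2.20 and 11.5. An RNA at that level could not be told from background here, so no ratio is given. Of the known markers of endothelial cells, in which Kdr is chiefly used, Pecam1, Cdh5, Tek, Tie1, Cldn5, Erg and Sox18 stayed under the detection test on every array. Altogether 5 of the 15 listed endothelial markers passed with DMSO and with bilberry, 6 with delphinidin and 7 with cyanidin. Those detected on all 4 were Esam, Vwf, Plvap, Egfl7 and Ramp2. Egfl7 read 0.963, 1.55, 1.07 and 1.06, a log2 ratio of 0.69 with bilberry. The bilberry ratios of Esam and Vwf were 0.43 and 0.73. Plvap was lower with all 3 treatments, at -0.17, -0.60 and -0.56. The summed scaled signal of all 15 listed markers, 44.3, 92.6, 38.4 and 38.5, was mostly Ramp2, an adrenomedullin receptor component, at 43.0, 90.7, 37.1 and 37.2. With bilberry Ramp2 was past 2-fold at 1.08, 1 of 5, where 10.7% of all genes were (4.08% higher). None of the 5 was past 2-fold with delphinidin or cyanidin, beside 3.31% and 2.46% of all genes.

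Nrp1, a co-receptor for VEGF and semaphorins, was slightly lower with bilberry in the main scaling. With bilberry it was above DMSO under normexp before the refit and far lower under spike-in scaling, as given below. In the main scaling its probes did not share a direction with delphinidin or cyanidin. A_51_P469285 (chromosome 8 of mm8, 131388840 to 131388899, plus strand) had scaled signals of 0.416 (DMSO), 0.297 (bilberry), 0.442 (delphinidin) and 0.506 (cyanidin), giving log2 ratios of -0.48, 0.09 and 0.28. A_52_P371237 (131354463 to 131354522) gave 0.314, 0.272, 0.335 and 0.340, with ratios of -0.21, 0.09 and 0.12. A_52_P174942 (131246199 to 131246258), 142641 bases from the first towards the 5′ end, gave 0.272, 0.210, 0.207 and 0.247, with ratios of -0.37, -0.40 and -0.14. No Nrp1 probe passed 2-fold in the main scaling, and the bilberry ratio of all 3 was positive under normexp before the refit. Spike-in scaling put all 3 past 2-fold with bilberry, at -2.01 (A_51_P469285), -1.74 (A_52_P371237) and -1.90 (A_52_P174942). It also turned the cyanidin ratio of A_52_P174942 positive (0.0996), so that all 3 probes then shared a direction with cyanidin.

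Nrp2, the co-receptor that also binds Vegfc, was lower with all 3 treatments under every setting. A_52_P93910 (chromosome 1 of mm8, 62752831 to 62752890, plus strand) had scaled signals of 23.9 (DMSO), 13.2 (bilberry), 11.4 (delphinidin) and 14.2 (cyanidin). The log2 ratios were -0.86, -1.07 and -0.75, or 1.81-fold, 2.10-fold and 1.68-fold lower, and only delphinidin was past 2-fold in this scaling. With bilberry the ratio was past 2-fold under normexp (-1.46), quantile normalization (-1.10) and spike-in scaling (-2.39), and with delphinidin it was within 2-fold under spike-in scaling (-0.81). The DMSO spot was bright enough to be read from the scanner's low-gain pass and scaled up, whereas the 3 treated spots were not, and the part of this in the ratios was not tested.

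Angpt1, the Tek ligand, gave the lowest member ratio with bilberry at 1 of its probes. A_52_P160328 (chromosome 15 of mm8, 42257097 to 42257156, minus strand), towards the 3′ end, had scaled signals of 0.453 (DMSO), 0.129 (bilberry), 0.476 (delphinidin) and 0.298 (cyanidin). The log2 ratios were -1.81, 0.07 and -0.60, so that bilberry was 3.51-fold lower. A_52_P574140 (42326424 to 42326483), 69327 bases towards the 5′ end, gave 0.332, 0.221, 0.390 and 0.292, with ratios of -0.59, 0.24 and -0.18. Both probes thus had bilberry lowest and delphinidin highest, and the ratio with bilberry was larger at the 3′ probe. Under normexp before the refit the bilberry ratios of A_52_P160328 and A_52_P574140 were 0.05 and 0.53. The receptor Tek was not detected.

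Angptl4, the lipase inhibitor and a known target of PPAR and glucocorticoid receptors, differed little. A_51_P338443 (chromosome 17 of mm8, 33381815 to 33381874, minus strand) had scaled signals of 267 (DMSO), 342 (bilberry), 230.4 (delphinidin) and 282 (cyanidin). No array had this spot saturated, and all 4 took it from the low-gain pass. The log2 ratios were 0.36, -0.21 and 0.08. The first turned negative under spike-in scaling (-1.17, past 2-fold) and normexp (-0.24), and the second positive under spike-in scaling and quantile normalization.

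**Figure D3:**
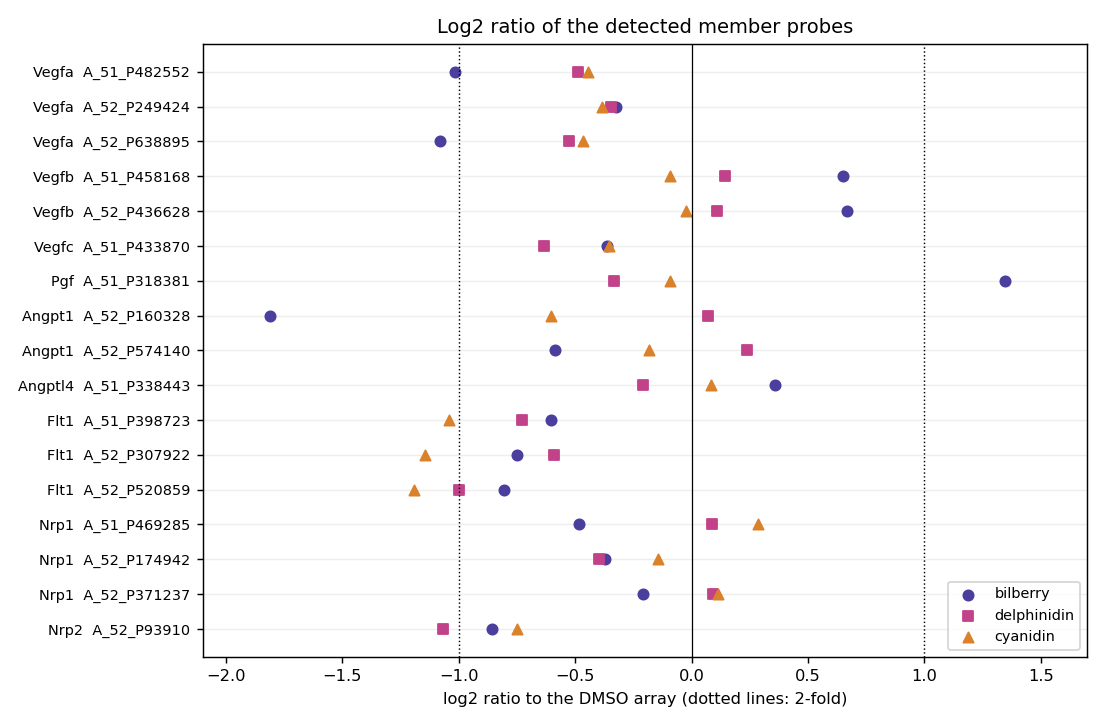
Log2 ratio to the DMSO array (horizontal axis) of the 17 member probes well above background on all 4 arrays, with bilberry as circles, delphinidin as squares and cyanidin as triangles, and dotted lines at 2-fold. The 3 detected Flt1 probes lie left of -1 with cyanidin. Pgf with bilberry, at 1.35, is the value right of 1, which was -0.18 under spike-in scaling.

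For counts, the probe of highest mean scaled signal stood for its gene, which is A_52_P160328 for Angpt1. With bilberry, 3 of the 9 measured genes were past 2-fold, Vegfa and Angpt1 lower and Pgf higher, where 10.7% of 12581 genes well above background on both arrays were. The background was 6.64% lower and 4.08% higher. Vegfa stood just inside the threshold at -1.01, and Nrp2 just outside at -0.86. Scaled to the median of detected probes, Vegfa was outside it at -0.99 and the count was 2, and under normexp Nrp2 took the place of Angpt1. With delphinidin, 1 of 9 was past 2-fold (Nrp2, lower), beside 3.31% of 13153 genes in either direction, 2.05% lower and 1.26% higher. With cyanidin, 1 of 9 was (Flt1, lower), beside 2.46% of 13117 genes in either direction, 1.75% lower and 0.709% higher. By probes, 4, 1 and 3 of 17 were past 2-fold in the same order of treatments, where 11.2%, 2.92% and 2.83% of all detected probes were. Taking A_52_P574140 for Angpt1 instead, whose mean log2 level is higher, the bilberry count was 2.

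The median log2 ratio of the 9 genes was -0.48 with bilberry, where all measured genes had a median of 0.16. The medians were -0.34 and -0.36 with delphinidin and cyanidin, where those of all genes were -0.02 and 0.00. Ratios were below 0 for 6 genes with bilberry, 6 with delphinidin and 7 with cyanidin, beside 38.3%, 53.5% and 49.5% of all genes. Vegfa, Vegfc, Flt1 and Nrp2 were below 0 with all 3 treatments, 4 of 9, as were 24.0% of 12526 genes well above background on all arrays. The same 4 lay below the median gene with each treatment, as did 28.9% of those genes. These 3 ratios share the DMSO array and are not independent of each other.

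**Figure D4:**
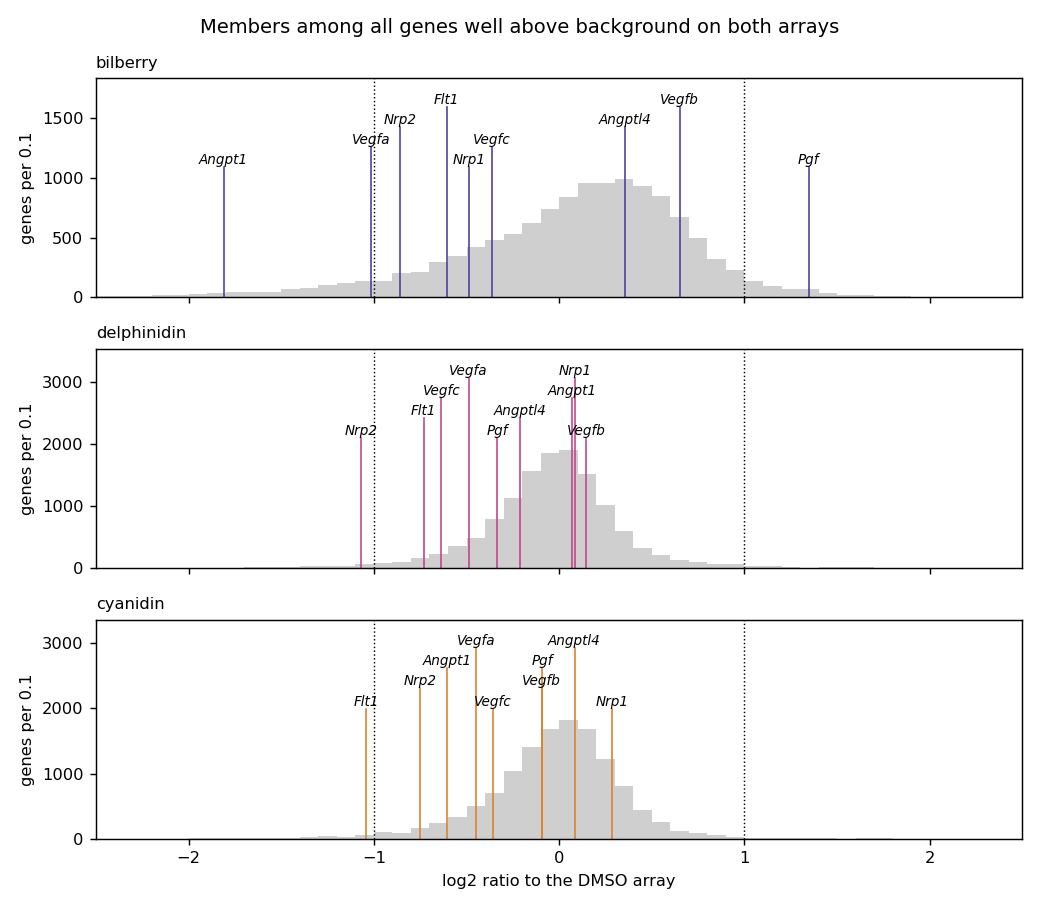
Number of genes per 0.1 of log2 ratio to DMSO (grey bars) among genes well above background on both arrays, for bilberry, delphinidin and cyanidin, with vertical lines at the 9 measured members and dotted lines at 2-fold. Angpt1 and Vegfa lie below -1 and Pgf above 1 with bilberry, Nrp2 lies below -1 with delphinidin and Flt1 with cyanidin. Ratios are those of the 75th percentile scaling, under which the median gene was at 0.16, -0.02 and 0.00.

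Delphinidin and cyanidin were given at the same dose of 100 nM and harvested on the same day, so this pair differing by a B-ring hydroxyl group could be set side by side. It was the only pair compared. None of the 9 genes differed 2-fold between them, beside 1.16% of 13322 genes (0.563% higher and 0.593% lower with delphinidin). The difference was below 0 for 6 of the 9, as for 55.9% of all genes. The log2 difference, delphinidin minus cyanidin, lay between -0.32 (Nrp2) and 0.68 (Angpt1), with a median of -0.20 where all genes had -0.03. Flt1 stood 0.31 higher with delphinidin and Vegfc 0.28 lower. For Vegfa the difference was -0.04. With 1 array each, no interval of these differences can be given, and small differences do not show that the compounds act alike. Bilberry extract was dosed by weight at 100 μg/ml and its values are given beside those of the pure compounds without a comparison of doses.

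Probes at different positions of a gene were compared where at least 1000 bases lay between them. The ratio of the probe nearest the 3′ end minus that of the probe nearest the 5′ end was -0.76 for Vegfa with bilberry, and -0.18 and -0.08 with delphinidin and cyanidin. For Angpt1 it was -1.23, -0.16 and -0.42. For Flt1 it was 0.14, -0.14 and 0.10, and for Nrp1 -0.11, 0.48 and 0.43. Over 3896 genes with such a pair the medians were -0.04, 0.02 and 0.05, and with bilberry the quartiles were -0.43 and 0.24. With bilberry, 12.7% of those genes were at or below the value of Vegfa and 4.72% at or below that of Angpt1. The size of the Vegfa and Angpt1 ratios with bilberry thus differed with the end of the gene that was read, and the cause was not tested.

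**Figure D5:**
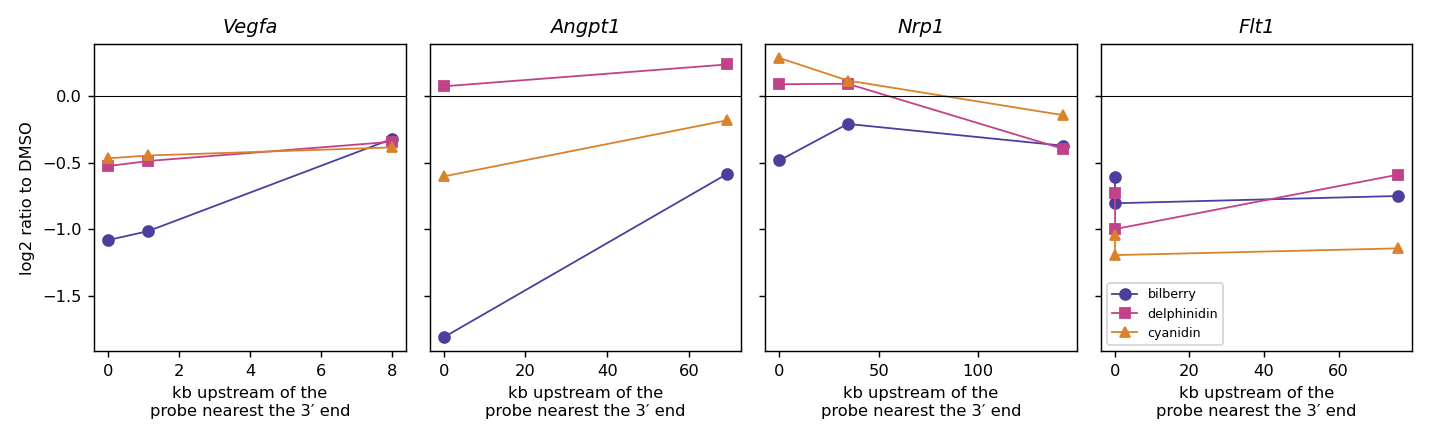
Log2 ratio to DMSO (vertical axis) of the detected probes of Vegfa, Angpt1, Nrp1 and Flt1 against the distance in kb from the probe nearest the 3′ end (horizontal axis, a separate scale for each gene), for bilberry, delphinidin and cyanidin. The bilberry line is at -1.08 at the 3′ end of Vegfa and -0.32 at the far probe, and at -1.81 and -0.59 for Angpt1. The bilberry ratios of Angpt1, of Nrp1 and of 2 Flt1 probes turned positive under normexp before the refit.

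The place of a probe on the array was also looked at, since ratios past 2-fold were unevenly placed. When the 532 rows were cut into 10 equal bands, bands 5 to 8 (rows 214 to 426, chosen after the ratios were seen) held 3.95% of detected singly spotted probes past 2-fold with delphinidin and 3.86% with cyanidin. Other rows held 2.14% and 2.07%. For bilberry the shares were 11.8% and 10.8%. Of the detected member probes spotted once, 5 lay in these rows and 11 elsewhere. Those in these rows were A_52_P249424 of Vegfa, A_51_P458168 of Vegfb, A_52_P307922 of Flt1 and A_51_P469285 and A_52_P371237 of Nrp1. For Vegfa the mean log2 ratio with bilberry was -1.02 over 4 spots in these rows and -1.03 over 5 spots elsewhere. With delphinidin it was -0.50 in these rows and -0.49 elsewhere, and with cyanidin -0.47 and -0.45.

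Of the relatives of these ligands and receptors, 2 of 15 measured were past 2-fold with bilberry, 1 of 16 with delphinidin and 1 of 16 with cyanidin, where 10.7%, 3.31% and 2.46% of all genes were. Angptl7, an angiopoietin-like protein, was higher with all 3, at log2 ratios of 1.26, 2.07 and 1.62. Its scaled signals were 0.990 with DMSO and 2.37, 4.15 and 3.04 with the treatments. Sema3g, a class 3 semaphorin that acts through neuropilins, was lower with bilberry at -1.46 and stood at -0.79 and -0.98 with delphinidin and cyanidin. The medians of the list were 0.04, 0.19 and 0.05, and those of all genes 0.16, -0.02 and 0.00. Figf, which encodes Vegfd, had ratios of 0.77, 0.57 and 0.27, and Angpt2, the antagonist of Angpt1, had -0.67, -0.64 and -0.19. Spike-in scaling lowered every bilberry ratio alike, the median gene from 0.16 to -1.37. Angptl7 and Figf with bilberry then lay below 0. Angptl1 was at least 2.68-fold lower with bilberry, where it was not well above background. The other VEGF receptor, Flt4, and the angiopoietin receptors Tek and Tie1 passed the detection test on none of the arrays.

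Of the genes downstream of VEGF receptors, 2 of 47 measured were past 2-fold with bilberry, 1 of 49 with delphinidin and 1 of 49 with cyanidin (all genes: 10.7%, 3.31% and 2.46%). With bilberry these were Plcg2, a phospholipase C, at 1.04 and Pik3ca, a catalytic subunit of PI3-kinase, at -1.27. Pik3cb, another catalytic subunit, was at 1.32 with delphinidin, and Mapk13, a p38 kinase, at -1.02 with cyanidin. Plcg2, Mapk13 and Pik3cb were dim, at scaled signals of 0.026, 0.055 and 0.086 with DMSO, where Pik3ca was at 1.88. After the refit of normexp only Pik3ca of this list was past 2-fold. Plcg2 was past it with no treatment under spike-in scaling, and Mapk13 with none under quantile normalization. Mapk13 with cyanidin was within 2-fold under spike-in scaling too. The list medians were 0.22, -0.02 and -0.03, near those of all genes.

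Hypoxia genes were listed because Vegfa, Flt1 and Angptl4 are known hypoxia targets. With bilberry, 3 of 34 were higher and none lower: Hmox1, heme oxygenase, at 1.87, Slc2a1, the glucose transporter GLUT1, at 1.501, and Egln1, an oxygen sensor of HIF, at 1.08, where 4.08% of all genes were 2-fold higher and 6.64% lower. With delphinidin Hmox1 was at 1.23, and with cyanidin Epas1 was at -1.24, 1 gene of 34 each, beside 3.31% and 2.46% of all genes. Slc2a1 and Egln1 were past 2-fold with no treatment under normexp or spike-in scaling, and Egln1 and Epas1 with none after the refit. Hmox1 with bilberry and Epas1 with cyanidin were also within 2-fold under spike-in scaling, where each was past it with another treatment only. Under spike-in scaling 25 listed genes were past 2-fold in any treatment, with the median gene at -1.37 for bilberry. The list median was 0.33 with bilberry and -0.07 and -0.20 with delphinidin and cyanidin. Hif1a, the oxygen-regulated subunit of HIF, had scaled signals of 6.38 (DMSO), 4.14 (bilberry), 4.85 (delphinidin) and 4.29 (cyanidin), and log2 ratios of -0.63, -0.40 and -0.57. Epas1, which encodes HIF2A, was dim at 0.04 with DMSO and had ratios of 0.36 and -0.48 with bilberry and delphinidin.

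PPAR and glucocorticoid targets were listed for Angptl4. Of the PPAR targets, Adipoq (adiponectin) was lower with bilberry at -1.07, 1 of 21, and none of 23 was past 2-fold with delphinidin or cyanidin. Of the glucocorticoid targets, Glul, glutamine synthetase, was at 1.05 and the transcription factor Klf15 at -1.16 with bilberry, 2 of 18, and Klf15 at -1.26 with delphinidin, 1 of 19. Of all genes, 10.7%, 3.31% and 2.46% were past 2-fold with bilberry, delphinidin and cyanidin. Adipoq was past 2-fold with no treatment under normexp or after its refit, and Klf15 with none after the refit. Glul was past it with none under normexp, its refit, quantile normalization or spike-in scaling. Klf15 with delphinidin was just within 2-fold under spike-in scaling. The medians of the PPAR list were 0.05, 0.03 and 0.17, and those of the glucocorticoid list 0.22, -0.20 and -0.18.

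Among other secreted regulators of vessel growth, 4 of 21 were past 2-fold with bilberry, where 10.7% of all genes were. The growth factors Hgf, Ptn and Igf1 were lower at -1.58, -1.55 and -1.34, and Tgfb1 was higher at 1.03. With delphinidin, the chemokine Ccl2 was higher at 1.09 and Hgf lower at -1.18, 2 of 22. With cyanidin, Ccl2 was higher at 1.22 and Vash1, an inhibitor of angiogenesis, lower at -1.08, 2 of 23. The shares of all genes were 3.31% and 2.46%. Igf1, Vash1 and Tgfb1 were past 2-fold with no treatment under normexp or after its refit. Tgfb1 was past it with none under spike-in scaling, and Vash1 with none under quantile normalization. Hgf with delphinidin and Vash1 with cyanidin were within 2-fold under spike-in scaling. The list medians were 0.11, 0.10 and -0.10. Hgf had scaled signals of 1.93 (DMSO), 0.644 (bilberry), 0.853 (delphinidin) and 1.22 (cyanidin).

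Markers of the cells themselves were present. All 9 preadipocyte or fibroblast markers with a value and 9 of 10 adipocyte markers (all but Lep) were well above background on each array. With bilberry, 3 of the 9 preadipocyte or fibroblast markers were past 2-fold lower, Thy1 (-1.20), Dcn (-1.52) and Lum (-1.86), where 6.64% of all genes were. Of that list Col1a1 (0.42) and Dlk1 (0.31) were above 0, and its median was -0.21. Of the 9 adipocyte markers, 3 were past 2-fold lower, Adipoq (-1.07), Slc2a4 (-1.54) and Retn (-1.08), while Cebpa (0.50), Plin1 (0.39), Cidec (0.17), Pparg (0.15) and Lpl (0.02) were above 0, and the median was 0.02. No marker of either list was past 2-fold with delphinidin or cyanidin, where 3.31% and 2.46% of all genes were. The summed scaled signal of the former list was 445, 406, 399 and 354 in the order of the arrays above, and that of the latter 415, 295, 455 and 499, of which the single probe of Fabp4, a fatty acid binding protein, made up 265, 137, 231 and 258. The part of these markers in the ratios of the members was not tested.

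The member with the widest range over the 4 arrays was Angpt1 at its probe A_52_P160328, with 1.88 on the log2 scale in the 75th percentile scaling. At A_52_P574140 the range was 0.82, below the 1.68 of Pgf. Of 12525 genes well above background on all arrays, the 5 whose 3 log2 ratios lay nearest to its own (-1.81, 0.07 and -0.60) by Euclidean distance were Ptn (distance 0.292), 3110048L19Rik (0.297), Clk4 (0.323), Snord22 (0.351) and 1300003B13Rik (0.355). None lay within a distance of 0.25. Likeness over 3 ratios that share a control is a description of these arrays.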

How the data were processed

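Agilent Feature Extraction output was deposited by the authors for 1 single-dye array per condition. Per the file headers the software version was 9.5.1.1, and the intensity used is its processed signal, which the deposited columns rebuild as the mean signal less a fitted spatial surface, divided by a multiplicative detrending factor. A deposited series table holds the same intensity (largest relative difference 0). As in the methods of the study, signals were floored at 0.01 and scaled to the 75th percentile of each array, here over non-control spots. From 701 to 875 marked spots per array were left out, spots of a probe were averaged on the log2 scale, and a gene was taken at its probe with the highest mean scaled signal. Genes were counted past 2-fold where well above background on both arrays. How many arrays there were limits the precision. The members and lists were chosen with earlier results of these data known. Named genes are all members, list genes past 2-fold, 7 genes named whatever their values, and the 5 nearest to the member of widest range. Angptl1, the endothelial markers other than Tek, Tie1 and Ramp2, Lep and the marker genes within 2-fold were named after their values were seen. Coordinates of probes are those of the files (mm8), whose exons were not annotated here. Promoter windows came from RefSeq (GRCm38.p6), matched by symbol for 8 of 10 members, all but Angpt1 and Angptl4. The 2-fold rule alone was tried on simulated ratios with planted changes well past it and the noise of spots within an array. That trial covers neither detection, nor the choice of probes, nor the spread between cultures. Tools were Python 3.11.15, numpy 2.4.6, pandas 2.3.3, matplotlib 3.10.9, R 4.3.3 and limma 3.58.1. Alternatives are given in the closing section.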

Additional observations from a re-analysis of the deposited data

How the results depend on the processing

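No paired analysis was possible because each condition has 1 array, and for the same reason no replicate could be left out. Spike-in scaling turned the sign of 4 of 17 detected member probes with bilberry, 1 with delphinidin and 5 with cyanidin. Those with cyanidin were Pgf, both Vegfb probes, A_52_P174942 of Nrp1 and A_52_P574140 of Angpt1. Normexp turned the sign of 8 with bilberry and 1 with cyanidin. Under spike-in scaling the members past 2-fold were 7 with bilberry (3 in the report) and 0 with delphinidin and with cyanidin (1 each), Pgf with bilberry was at -0.18, and the member medians were -2.01, -0.072 and -0.11 with the 3 treatments. Listed genes past 2-fold in any treatment then numbered 14 relatives, 33 VEGF signaling, 25 hypoxia, 19 PPAR, 15 glucocorticoid and 18 secreted regulators (2, 4, 4, 1, 2 and 6 in the report). The median gene with bilberry was itself past 2-fold lower in that scaling, at -1.37. High counts there are therefore not particular to the members or lists. Shares of all genes past 2-fold were not counted under the alternatives. Under normexp, whose fitted background mean on the bilberry array was -344.9 and -5.65 after a refit without spots of uneven local background, Angpt1 A_52_P160328 was at 0.051 with bilberry, the bilberry median was -0.24, 0 members were past 2-fold with cyanidin, and the lists gave 7 relatives, 12 VEGF signaling, 8 hypoxia and 5 PPAR genes. The refit gave a bilberry median of -0.42, 0 members with cyanidin, and 1 VEGF signaling, 2 hypoxia, 0 PPAR, 0 glucocorticoid and 3 secreted genes. Quantile normalization moved the medians to -0.55, -0.24 and -0.42 and gave 3 PPAR genes and 1 glucocorticoid gene. A threshold of 1.5-fold gave 6 members with bilberry and 3 each with delphinidin and cyanidin, and one of 3-fold gave 1, 0 and 0. No share of all genes was counted at these 2 thresholds, so the counts have no background beside them. Without a detection filter there were 4 relatives, 2 PPAR genes and 10 secreted regulators. The probe with the highest mean log2 level, an alternative chosen after seeing the data, gave a cyanidin median of -0.18. The other 114 of 154 counts and medians stayed within 1.5 times or within the spread of spots, which does not mean the same genes. Of listed genes named in the report, Slc2a1, Egln1, Adipoq, Glul, Vash1, Igf1 and Tgfb1 were past 2-fold with no treatment under normexp. Those with none after the refit were Plcg2, Mapk13, Pik3cb, Egln1, Epas1, Adipoq, Klf15, Glul, Vash1, Igf1 and Tgfb1. Under spike-in scaling those with none were Plcg2, Slc2a1, Egln1, Glul and Tgfb1, and under quantile normalization Mapk13, Glul and Vash1. These lists take any treatment, so a gene left out of them can still be within 2-fold with the treatment named in the report. Under spike-in scaling that held for Angptl7 and Hmox1 with bilberry, Hgf and Klf15 with delphinidin, and Mapk13, Vash1 and Epas1 with cyanidin. The lists of endothelial, preadipocyte or fibroblast and adipocyte markers were not run under the alternatives. Causes were not tested. Signal over background limits the dim members, and Kdr gave no ratio.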

Other observations

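A probe outside the symbols used here is annotated as a neuropilin-2(a22) cDNA. It was well above background with cyanidin alone, at a log2 scaled signal of -6.46, close to the lowest level well above background on that array (-6.54).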
